A study of Mus musculus with 86 samples.

Results

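Ribosomal protein genes encode the protein parts of the cytoplasmic ribosome. They were taken as the protein-coding genes of GRCm38 (mm10) whose symbols begin with Rpl, for the large subunit, or Rps, for the small subunit, without the Rps6k kinases and Rps19bp1. This gave 90 genes, 56 Rpl and 34 Rps, of 21887 protein-coding genes. Their surroundings were read in 8 deposited peak lists of chromatin immunoprecipitation with sequencing (ChIP-seq), out of 86 libraries in the series. The lists cover SOX2 and CTCF in mouse embryonic stem cells of strain 129S5/SvEvBrd, grown on gelatin in medium with serum and leukemia inhibitory factor. Each factor has 2 libraries of untreated asynchronous cells and 2 of mitotic cells, which were arrested with the microtubule poison nocodazole at 100 ng/ml for 6 h and collected by shake-off. The labels do not say whether the 2 libraries of a group come from separate cultures. Spreads are therefore only those between these libraries and may be technical, and p-values compare only these libraries. Asynchronous cultures hold cells of every cell cycle phase, mitotic ones included.

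Ribosomal protein genes are among the most actively transcribed genes of growing cells, and their products are made in balanced amounts. Most of their mRNAs start with an unbroken run of pyrimidines (a terminal oligopyrimidine, or TOP, motif) through which translation follows nutrient signals, and many of the genes carry small nucleolar RNA (snoRNA) genes in their introns. SOX2 binds DNA through an HMG box and is part of the network that keeps embryonic stem cells pluripotent. CTCF is a zinc finger protein that holds loop anchors and domain borders, and it also binds near many promoters. In mitosis chromatin is compacted and transcription is largely shut down, and factors differ in how much of their binding remains.

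The 90 genes lay on 19 chromosomes, 4 of them on the X chromosome, and only 3 pairs lay within 50 kb of each other, among them Rpl36al with Rps29 and Rpl3l with Rps2. Their median length was 3169.5 bp, against 17169 bp over all protein-coding genes, so short genes had to be part of the comparison: 10756 coding genes fell within their length range of 374 to 16779 bp and are called genes of like length here. This group shares only the outer limits of length and was not matched to the median. The number of other coding genes within 50 kb had a median of 3.5 for ribosomal protein genes and 3 for all coding genes. In all, 36 of the 90 had another coding gene within 1 kb of a boundary. SnoRNA genes lay inside 30 of the 90 genes (33.3%, 59 snoRNA genes in all), against 1.70% of all coding genes.

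The start of transcription carried a long pyrimidine run in part of the genes. RefSeq promoters were found for 69 of the 90 genes, with 81 start sites. A run of at least 8 pyrimidines reached within 5 bases of 32.1% of these starts, against 9.78% of 21263 starts of coding genes and 9.33% of 75 starts of mitochondrial ribosomal protein genes (Mrpl and Mrps). The start base was C at 30.9% of the ribosomal protein starts and at 13.8% of all starts. The 6 genes with the longest runs lying wholly between 10 bases before and 20 bases from the start are shown, with the run in capitals (GRCm38.p6, RefSeq, 5′ to 3′ on the gene's strand, 10 bases before the start and 20 from it).
Rpl27a: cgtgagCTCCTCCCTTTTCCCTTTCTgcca
Rpl35: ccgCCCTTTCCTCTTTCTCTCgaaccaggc
Rpl15: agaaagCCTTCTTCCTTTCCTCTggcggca
Rpl13a: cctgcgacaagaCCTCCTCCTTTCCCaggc
Rpl14: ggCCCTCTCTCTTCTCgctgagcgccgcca
Rpl35a: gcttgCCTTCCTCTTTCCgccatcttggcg
The runs are 13 to 20 bases long. The windows lie at chr7:109519185-109519214 (plus strand), chr2:39005112-39005141 (minus), chr14:18270967-18270996 (minus), chr7:45128726-45128755 (minus), chr9:120571507-120571536 (plus) and chr16:33056472-33056501 (plus).

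In 8 genes a CTCF region that was called in both mitotic libraries had its asynchronous summit within 250 bp of an annotated start. Their sequences are shown because these promoters carry the mitotic CTCF peaks described below. Each window holds 50 bases on either side of the summit and ends at most 20 bases into the transcript. Capitals mark the letters CCCTC or GAGGG, a short core of the CTCF site, and the longer letters CCNNNAGNNGGC or GCCNNCTNNNGG, which can overlap the core and were chosen after these sequences had been seen.
Rplp0: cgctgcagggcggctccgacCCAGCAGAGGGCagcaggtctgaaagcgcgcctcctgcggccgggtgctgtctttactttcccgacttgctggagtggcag
Rpl38: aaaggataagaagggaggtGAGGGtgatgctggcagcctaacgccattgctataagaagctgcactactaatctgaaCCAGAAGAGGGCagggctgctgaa
Rpl5: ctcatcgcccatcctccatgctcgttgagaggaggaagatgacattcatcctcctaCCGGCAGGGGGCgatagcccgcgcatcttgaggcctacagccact
Rpl26: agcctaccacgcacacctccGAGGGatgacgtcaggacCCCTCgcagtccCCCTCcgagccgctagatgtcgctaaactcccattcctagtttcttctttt
Rps3a1: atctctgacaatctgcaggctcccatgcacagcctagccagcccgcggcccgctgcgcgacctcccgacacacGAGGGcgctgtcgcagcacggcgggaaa
Rpl11: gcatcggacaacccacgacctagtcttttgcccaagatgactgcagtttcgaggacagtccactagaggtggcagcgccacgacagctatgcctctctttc
Rpl10a: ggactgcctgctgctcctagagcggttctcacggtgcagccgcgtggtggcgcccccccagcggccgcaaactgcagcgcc
Rpl27: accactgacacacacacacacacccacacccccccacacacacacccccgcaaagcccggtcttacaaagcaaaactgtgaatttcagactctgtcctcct
The short core was found in 4 of these 8 windows and the longer letters in 3, those of Rplp0, Rpl38 and Rpl5. In 3 windows neither was found. Over whole promoters (250 bases before the start and 50 from it) the longer letters stood in 9.88% of the 81 ribosomal protein promoters and in 9.88% of all promoters. The short core stood in 59.3% and in 69.6%. The windows lie at chr5:115559270-115559370 (plus strand), chr11:114668381-114668481 (plus), chr5:107900409-107900509 (plus), chr11:68901406-68901506 (plus), chr3:86142712-86142812 (minus), chr4:136053452-136053552 (minus), chr17:28328410-28328490 (plus) and chr11:101442031-101442131 (plus).

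The promoters under 2 of the 3 SOX2 regions called in a mitotic library are shown in the same way, with SOX2-type cores in capitals. The first core searched was ACAAAG and the other was ACAATG, each on both strands.
Rps7: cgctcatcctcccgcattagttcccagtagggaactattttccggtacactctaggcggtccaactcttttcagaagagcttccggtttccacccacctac
Rpl13a: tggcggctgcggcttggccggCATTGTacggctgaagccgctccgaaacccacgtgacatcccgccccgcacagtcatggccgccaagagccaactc
Only the Rpl13a window held such a core, and the Rps7 window held neither. Both windows were placed around the asynchronous summit. The mitotic SOX2 summit at Rpl13a lay 623 bp from it, outside the bases shown. The windows lie at chr12:28635946-28636046 (Rps7) and chr7:45128899-45128995 (Rpl13a), both on the minus strand. Over whole promoters ACAAAG stood in 13.6% of ribosomal protein promoters and 16.8% of all, and ACAATG in 8.64% and 11%. The other 2 motifs, searched on both strands, stood in larger shares of the ribosomal protein promoters than of all promoters. The ETS-type letters CCGGAAG stood in 33.3% against 11.6%, and the YY1-type letters AAGATGG in 14.8% against 6.24%. Mitochondrial ribosomal protein promoters had 34.7% and 17.3%. A match is a match of letters and is not by itself a bound site.

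Of the 8 lists, SOX2 had 90266 and 63504 peaks in the asynchronous libraries and 1976 and 408 in the mitotic ones. CTCF had 68328 and 67995 asynchronous and 20142 and 15338 mitotic peaks. The depth estimated from the lists, in background reads per 100 bp, was 1.61 to 2.62 for SOX2 and 3.36 to 3.77 for CTCF. In each factor the estimate of a mitotic library was no lower than that of the asynchronous library of the same number. For SOX2 replicate 2 these values were close (1.61 asynchronous, 1.64 mitotic). Mitotic SOX2 replicate 2 had a lower estimate (1.64) than mitotic SOX2 replicate 1 (2.62). How far this background follows sequencing depth is not known, since calling options and control libraries were not given. Fold means the authors' deposited ratio of the signal at a peak's summit to its local background. Each list was called by itself, so folds rank peaks within a list and are not compared between conditions.

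SOX2 peaks stood at the boundaries of most ribosomal protein genes in asynchronous cells and at almost none in mitosis. A SOX2 peak lay within 1 kb of a gene boundary in 78 and 63 of the 90 genes in the asynchronous libraries. In the mitotic libraries this held for 3 genes (Rpl13a, Rpl23 and Rps7) and for 0 genes. Over all protein-coding genes the shares were 56.1% and 42.6% in asynchronous replicates 1 and 2, and 4.98% and 0.781% in mitotic replicates 1 and 2. No ribosomal protein gene was reached in both mitotic libraries (0 of 90, 95% Wilson interval 0 to 4.09%), against 0.749% of all coding genes. The mean number was 70.5 ± 10.6 genes (SD, n = 2) in asynchronous and 1.5 ± 2.12 (SD, n = 2) in mitotic cells, with no overlap between the groups. The two-sided exact permutation test gave p = 0.333, the smallest value that 2 against 2 libraries allow.

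Genes of both subunits took part. Of the 56 Rpl genes, 47 and 39 had a SOX2 peak at a boundary in the asynchronous libraries, and of the 34 Rps genes 31 and 24 did. Set against other groups, 67.8% of the ribosomal protein genes had such a peak in both asynchronous libraries, while 53.8% of the 78 mitochondrial ribosomal protein genes, 33.9% of genes of like length and 40.5% of all coding genes did. Peaks kept for a −log10 q of at least 5 gave the same order, with 53.3% of the ribosomal protein genes, 39.7% of the mitochondrial ones, 25.3% of genes of like length and 29.6% of all coding genes. With only peaks of a fold of at least 5 the order changed, to 10.0% of the ribosomal protein genes, 21.8% of the mitochondrial ones, 10.0% of genes of like length and 12.1% of all coding genes. Regions with a peak in both asynchronous libraries (reproducible regions) were ranked by strength, the mean percentile of their fold in the 2 lists. The 80 SOX2 regions at ribosomal protein gene boundaries had a median strength of 43.2, and the 9360 at boundaries of any coding gene had 49.0.

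**Figure D1:**
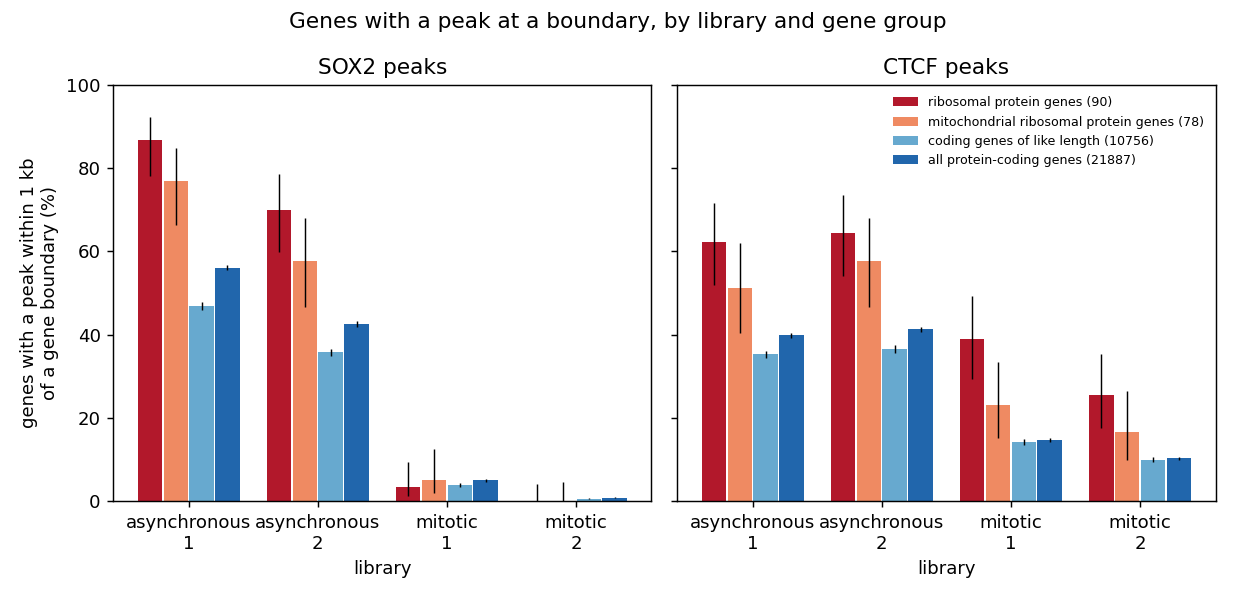
Share of genes (%, vertical axis) with a SOX2 peak (left) or a CTCF peak (right) within 1 kb of a gene boundary, for each of the 4 libraries of a factor (horizontal axis). Bars are gene groups and error bars are 95% Wilson intervals, which cover counting error only. In the mitotic libraries SOX2 reached 3 and 0 of the 90 ribosomal protein genes, and CTCF reached 35 and 23.

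SOX2 peaks also stood at the far end of these genes. Of the 69 genes with a known strand, 52 and 38 had a SOX2 peak within 1 kb of the start in asynchronous replicates 1 and 2, and 36 and 19 had one within 1 kb of the end. The end shares were 52.2% and 27.5%. Genes of like length had 15.7% and 10.6% at the end, mitochondrial ribosomal protein genes 21.7% and 11.6%, and all coding genes 13.7% and 9.34%. At the start the ribosomal protein genes (75.4% and 55.1%) had shares close to those of the mitochondrial ones (76.8% and 56.5%). In a short gene 1 peak can lie within 1 kb of both boundaries. None of the other groups was matched to the median length of the ribosomal protein genes (3169.5 bp, against 7690.5 bp for the mitochondrial ones). The part of gene length in the end shares was not tested.

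**Figure D2:**
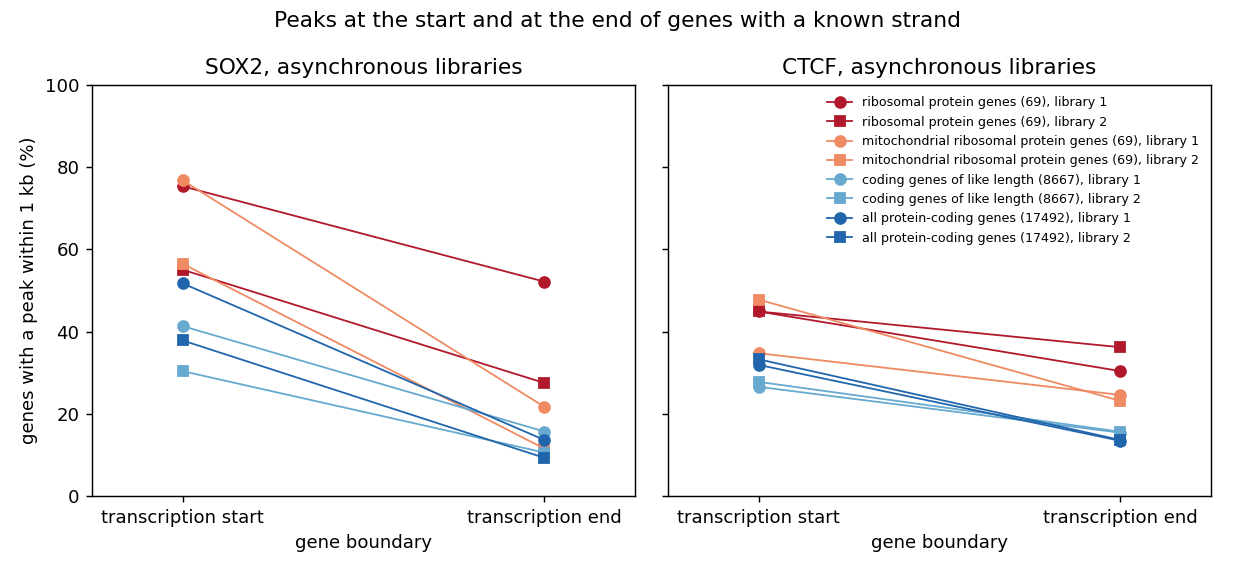
Share of genes (%, vertical axis) with a peak within 1 kb of the start or of the end of transcription (horizontal axis) in the asynchronous libraries, for SOX2 (left) and CTCF (right). Circles are library 1 and squares library 2, and lines join the same library. For SOX2 the ribosomal protein genes lie at 52.2% and 27.5% at the end, above the other groups of the same library.

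The strongest SOX2 peak at a boundary belonged to Rps23rg1, a retrogene copy of Rps23, with folds of 11.7 and 14.6 in the asynchronous libraries and no mitotic peak. Its parent Rps23, whose protein sits at the decoding centre, had folds of 8.68 and 7.76. Whether reads of such near-identical copies were separated depends on mapping filters that the sources used here do not give. Rps19, a small subunit protein mutated in Diamond-Blackfan anaemia, had folds of 8.55 and 6.03. On the X chromosome, Rpl10 (chrX:74270816-74273135), which joins the large subunit late in its assembly, had 6.52 and 6.00. Rpl31 had 4.88 and 6.82, and Rpl3, a protein near the peptidyl transferase centre, had 7.57 and 5.19. None of these 6 genes had a mitotic SOX2 peak within 1 kb in either library.

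By peaks within 1 kb, Rps7 (chr12:28630847-28635953) had the highest asynchronous SOX2 folds, and the lowest mitotic one, of the 3 genes with a mitotic SOX2 peak at a boundary. Its folds were 10.1 and 13.3 in the asynchronous libraries and 3.38 in mitotic replicate 1, with no peak in mitotic replicate 2. The asynchronous summit lay at −42.5 bp from the start, and the mitotic summit was shifted from it by −43.5 bp along the chromosome. At Rpl13a the region had asynchronous folds of 3.71 and 3.80 and a mitotic fold of 3.87, and the mitotic summit lay 623 bp from the asynchronous one. At Rpl23 the region had 4.04 and 3.89 and a mitotic fold of 3.56, at a distance of 319.5 bp. Rpl13a and Rpl23 were named after their values had been seen. Of the 80 reproducible SOX2 regions at boundaries, 3 (3.75%, 95% Wilson interval 1.28 to 10.5%) were called in mitotic replicate 1 and 0 in replicate 2 (0 to 4.58%). Over regions at all coding gene boundaries 10.6% and 1.91% were called, and 1.81% in both.

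Within 50 kb of the gene body every ribosomal protein gene had a SOX2 peak in both asynchronous libraries, while 90.1% and 86.8% of all coding genes did. Mitotic peaks were within 50 kb of 16 and 6 of the 90 genes, against 17.8% and 3.94% of all coding genes. In both mitotic libraries it was 6 genes (6.67%), against 3.71%. The mean fell from 90 to 11 ± 7.07 genes (SD, n = 2; exact permutation p = 0.333). Of 515 reproducible SOX2 regions within 50 kb, 3.88% and 1.17% were called in mitotic replicates 1 and 2, and 6 in both (1.17%, 95% Wilson interval 0.535 to 2.52%). The share called in both was 0.724% for regions within 50 kb of any coding gene.

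These 6 regions lay away from the ribosomal protein genes themselves. The strongest (chr9:120148821-120150365) was 16.5 kb from Rpsa, the small subunit protein also known as a laminin receptor, and was nearest to Mobp. Its folds were 41.5 and 41.1 in the asynchronous libraries and 5.09 and 6.12 in the mitotic ones. A region 24.7 kb from Rps12 (chr10:23812065-23813927, nearest gene Slc18b1) had 26.3 and 34.4, then 6.34 and 6.63. The one 25.7 kb from Rpl28 (chr7:4820272-4822977, nearest gene Shisa7) had 22.7 and 21.1, then 2.85 and 4.53. A region 36.1 kb from Rps18 and another 25.4 kb from Rps14 had asynchronous folds between 3.99 and 10.4. Of the 6, only the region near Rps14 did not overlap a reproducible CTCF region. At the boundary of Rpsa itself the SOX2 folds were 2.76 and 3.57, with no mitotic peak.

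The number of reproducible SOX2 regions within 50 kb ranged from 1 to 18 per gene, with a median of 5 (4 for all coding genes and 3 for genes of like length). Rps18 had the most, 18, of which 1 was called in both mitotic libraries. Rpl3 had 15, Rps21 had 12, and Rpl7l1 and Rpl8 had 11 each, none of them called in a mitotic library. Of the genes with 1 region, Rpl10l, a testis-expressed copy of Rpl10, had no other coding gene within 50 kb.

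CTCF peaks stood at the boundaries of ribosomal protein genes in a larger share than at coding genes at large, in asynchronous cells and in mitosis. A CTCF peak lay within 1 kb of a boundary in 56 and 58 of the 90 genes in the asynchronous libraries and in 35 and 23 in the mitotic ones. Over all coding genes the shares were 39.8% and 41.3% in asynchronous and 14.7% and 10.3% in mitotic replicates 1 and 2. In both mitotic libraries 23 genes had a peak (25.6%, 95% Wilson interval 17.7 to 35.4%). The same held for 9.63% of all coding genes, 9.52% of genes of like length and 16.7% of the mitochondrial ribosomal protein genes (10.0 to 26.5%). The mean fell from 57 ± 1.41 (SD, n = 2) to 29 ± 8.49 genes (SD, n = 2), a difference larger than the spread between libraries, and the groups did not overlap. The two-sided exact permutation test gave p = 0.333, the smallest value possible.

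The share in both mitotic libraries stood above that of all coding genes under each other setting run. It was 12.2% against 4.49% with folds of at least 5, and 14.5% against 6.33% at the start boundary alone. Among the 54 ribosomal protein genes with no other coding gene within 1 kb, a setting chosen after seeing the data, it was 25.9%, against 8.54% of all such genes and 25.8% of the 31 mitochondrial ones. By subunit, 18 of 56 Rpl genes (32.1%, 95% Wilson interval 21.4 to 45.2%) and 5 of 34 Rps genes (14.7%, 6.45 to 30.1%) were reached in both mitotic libraries, and these intervals overlap. Hosts of snoRNA genes had 7 of 30 (23.3%) and the other genes 16 of 60 (26.7%). No ribosomal protein gene had a mitotic peak of either factor at a boundary without an asynchronous one. All 23 genes also had a CTCF peak in both asynchronous libraries.

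**Figure D3:**
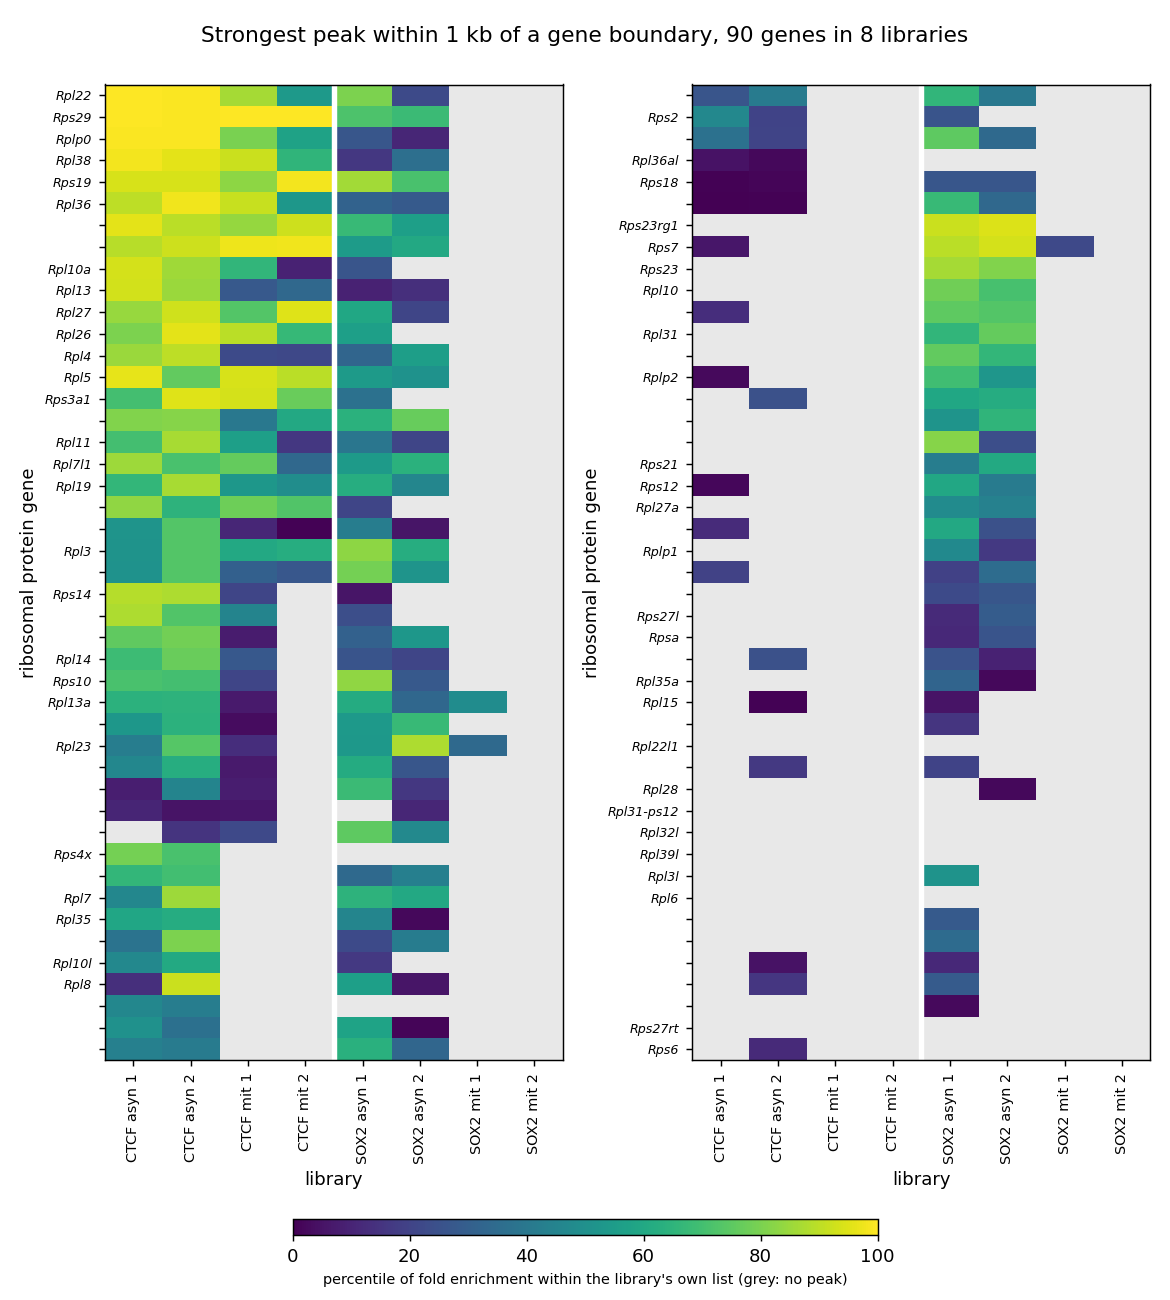
Heat map of the 90 ribosomal protein genes (rows) in the 8 libraries (columns: CTCF and SOX2, asynchronous 1 and 2, mitotic 1 and 2). Colour is the percentile of the fold of the strongest peak within 1 kb of a gene boundary in that library's own list, and grey means no peak. Rows are labelled for genes named in the text. The 23 genes with CTCF in both mitotic libraries fill the top of the left panel, and the SOX2 mitotic columns hold 3 coloured cells.

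The large subunit gave most of the strong sites. Rpl22 (chr4:152324436-152334082) had the highest mean percentile, 99.6, with folds of 32.7 and 20.6 in the asynchronous libraries and 9.23 and 4.77 in the mitotic ones. This site lay inside the gene, 7406 bp from the annotated start. Its paralogue Rpl22l1 had no peak of either factor at a boundary in any library. Rplp0 (chr5:115559467-115563729), the scaffold of the ribosomal stalk, had 22.6 and 21.8, then 8.04 and 4.95. The stalk genes Rplp1 and Rplp2 had no CTCF peak within 1 kb in the mitotic libraries. The nearest regions called in both were 2.34 kb from Rplp1 and 6.44 kb from Rplp2.

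At Rpl38 (chr11:114667818-114672333), a large subunit gene linked to the translation of Hox mRNAs, the folds were 17.6 and 14.3, then 10.8 and 5.41. Rpl36 had 12 and 16.2, then 10.6 and 4.70. Rpl10a had 13.3 and 10.7, then 6.30 and 3.11. Rpl13 had 13.1 and 10.6, then 3.81 and 3.91. These sites were in the upper part of each asynchronous list, with mean percentiles from 89.1 (Rpl13) to 97.0 (Rpl38).

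Rpl27 had 10.7 and 12.7 in the asynchronous libraries, then 7.07 and 9.28. Rpl26 had 9.85 and 14.3, then 10.0 and 5.48. Rpl4, whose protein lines the peptide exit tunnel, had 10.7 and 11.8, then 3.58 and 3.52. Rpl5 and Rpl11, whose proteins bind Mdm2 when ribosome assembly is disturbed, were both called in all 4 CTCF libraries. Rpl5 (chr5:107900508-107909005) had 14.8 and 8.94, then 11.6 and 7.92. Rpl11 (chr4:136049354-136053393) had 8.22 and 11.1, then 5.46 and 3.36. At both genes the asynchronous summit lay before the start, at −69 bp at Rpl5 and −108.5 bp at Rpl11.

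Among small subunit genes, Rps29 (chr12:69157722-69159186) had folds of 29.0 and 20.7, then 21.2 and 18.8 in mitosis, the highest mitotic folds of the 90 genes. Rps19 had 13.5 and 13.3, then 8.58 and 11.5, at a site 5732 bp from the annotated start, beyond the end of the gene. Rps3a1 had 8.22 and 14.0, then 11.2 and 6.30. Rps6, the protein phosphorylated by S6 kinases, had 1 CTCF peak at a boundary, of fold 2.85, in asynchronous replicate 2.

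At other members with an asynchronous CTCF peak, none was called in mitosis. Rps4x (chrX:102184941-102189391) had folds of 9.59 and 8.17 in the asynchronous libraries and no mitotic peak. Rpl10l had 5.25 and 6.73 and no mitotic peak. No CTCF peak lay at a boundary of Rpsa, Rpl10, Rps27l, Rpl3l, Rpl39l or Rpl22l1 in any library. In all, 12 genes had a CTCF peak in mitotic replicate 1 alone, and replicate 2 added none. No peak of either factor in any library stood at a boundary of 6 genes (Rpl6, Rpl22l1, Rpl39l, Rpl32l, Rpl31-ps12 and Rps27rt), of which Rpl6, Rpl32l, Rpl31-ps12 and Rps27rt were named after their values had been seen. All but Rpl6 carry symbols built on those of other members, which the symbol rule took in. Other members with such symbols, among them Rps23rg1 and Rpl7l1, did have peaks. The mapping limit given for Rps23rg1 applies to any near-identical copies here too.

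At the level of regions, 73 reproducible CTCF regions touched a ribosomal protein gene boundary. Mitotic replicates 1 and 2 called 36 and 25 of them, 49.3% (95% Wilson interval 38.2 to 60.5%) and 34.2% (24.4 to 45.7%). All 25 regions called in replicate 2 were also called in replicate 1. The share called in both, 34.2%, stood beside 26.5% of 8309 regions at boundaries of any coding gene and 34.0% of 50 at mitochondrial ribosomal protein genes. The mean over the libraries was 41.8 ± 10.7% (SD, n = 2), and 32.8 ± 6.88% (SD, n = 2) for all coding genes. The share was higher than that of all coding genes in each library (37.7% and 27.9% of all), and the difference of the means was smaller than the SD between the 2 libraries. In asynchronous cells 55.6% of the ribosomal protein genes and 35.2% of all coding genes had CTCF at a boundary in both libraries. The 25 regions include 1 at Rpl7, whose mitotic peaks end short of the 1 kb window. Another coding gene's boundary lay within 1 kb of 22 of the 73 CTCF regions, 6 of these among the 25, and of 16 of the 80 SOX2 regions.

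Strength differed between the regions by mitotic call, with overlap. Those called in both mitotic libraries had strengths from 62.2 to 99.6 (median 87.5). The 11 called in 1 library ran from 26.6 to 88.3 (median 70.6), and the 37 called in neither from 0.249 to 83.1 (median 28.9). The median strength of all 73 was 62.2, against 53.6 at boundaries of all coding genes. All regions at coding gene boundaries were divided into 4 equal classes by strength. In the strongest class 16 of 19 regions at ribosomal protein genes were called in both mitotic libraries (84.2%), and 77.4% of all. The next class had 9 of 26 (34.6%), and 26.4% of all. In the weaker 2 classes it was 0 of 15 and 0 of 13, beside 0.963% and 1.3% of all.

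**Figure D4:**
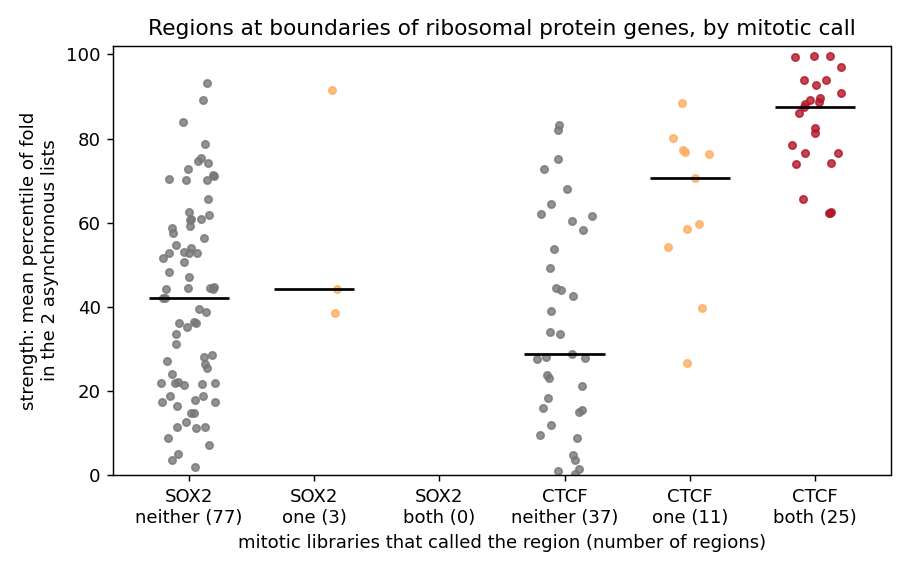
Each point is a reproducible asynchronous region at a ribosomal protein gene boundary. The vertical axis is its strength (mean percentile of fold in the 2 asynchronous lists), the horizontal axis groups regions by factor and by how many mitotic libraries called them, and black lines are medians. CTCF regions called in both mitotic libraries lie between 62.2 and 99.6, and those called in neither between 0.249 and 83.1, with a median of 28.9.

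Mitotic CTCF peaks sat on the asynchronous summits in most cases. Over the 50 mitotic peaks in regions called in both libraries, the median distance between summits was 30.25 bp. The largest was 673 bp, at Rpl4 in mitotic replicate 2, and at Rpl13 the summit was shifted by −596.5 bp along the chromosome in both mitotic libraries. Of the 16 such regions at genes with a known start, 8 had the summit within 250 bp of it. Of the 27 regions at genes with a known start that neither library called, 5 did. A reproducible SOX2 region overlapped 32 of the 73 CTCF regions (43.8%), near the 40.6% at boundaries of all coding genes. Within the 73, it overlapped 16 of the 25 that both mitotic libraries called (64.0%) and 10 of the 37 that neither called. The regions called in both were also wider (median 1308 bp) than those called in neither (median 548 bp). The parts of strength and width, which both differ between these classes, were not tested. The same split over the boundaries of all coding genes is not given here.

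Within 50 kb of the gene body all 90 genes had a CTCF peak in both asynchronous libraries, against 88.5% and 88.5% of all coding genes. In the mitotic libraries 82 and 76 genes did, against 71.7% and 64.7%, and 75 genes (83.3%) in both, against 64.0%. The mean fell from 90 to 79 ± 4.24 genes (SD, n = 2; exact permutation p = 0.333). Of 747 reproducible regions, 33.2% and 24.8% were called in mitotic replicates 1 and 2, and 24.0% in both, beside 24.5% of regions near any coding gene. The share of regions called thus matched the background to within 1 percentage point at this distance.

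The number of CTCF regions within 50 kb ranged from 1 to 19 per gene, with a median of 8.5 (6 for all coding genes and 5 for genes of like length). Rpl3 (chr15:80077781-80083406) had the most, 19, and 9 of them were called in both mitotic libraries. The strongest of the 9 lay 4.68 kb away (chr15:80088086-80089310, nearest gene Syngr1), with folds of 18.5 and 23.4, then 9.11 and 7.78. The region at the boundary of Rpl3 itself had 5.80 and 8.51, then 5.76 and 5.22. Rps10 had 17 regions, 3 of them called in both mitotic libraries. Rpl10a, Rpl19 and Rpl22 had 16 each, of which 4, 6 and 3 were called in both.

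Other genes of the pathway were counted in the same windows, from lists described here by counts alone. Of 25 genes for translation factors and other TOP mRNAs, SOX2 reached 25 and 19 at a boundary in the asynchronous and 6 and 1 in the mitotic libraries, and CTCF reached 12 and 15, then 10 and 7. Of 30 ribosome assembly genes, SOX2 reached 28 and 21, then 3 and 1, and CTCF 15 and 15, then 8 and 6. Of 12 genes for the transcription of ribosomal RNA, SOX2 reached 11 and 6, then 1 and 0, and CTCF 3 and 5, then 0 and 1. Of 16 regulators of ribosomal protein synthesis, SOX2 reached 14 and 13, then 3 and 0, and CTCF 10 and 10, then 4 and 3. Of all coding genes, SOX2 reached 56.1% and 42.6%, then 4.98% and 0.781%, and CTCF 39.8% and 41.3%, then 14.7% and 10.3%.

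SOX2 stood in both mitotic libraries at 2 of these genes, beside 0.749% of all coding genes. Eif4g2, a translation initiation factor, had folds of 10.1 and 14.0, then 5.54 and 6.19. Fbl, the methyltransferase fibrillarin, had 5.50 and 5.59, then 6.34 and 3.54. CTCF stood in both mitotic libraries at 6 of the translation factor genes, 6 of the assembly genes, 2 of the regulators and 0 of the ribosomal RNA transcription genes, beside the 9.63% of all coding genes.

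The strongest of these by mean percentile was Trp53, the tumour suppressor that Mdm2 restrains, with CTCF folds of 20.1 and 31.8, then 23.6 and 20.04. Mdm2 had 15.1 and 15.1, then 14.4 and 6.95. Eef1b2, an elongation factor subunit, had 17.9 and 17.5, then 5.24 and 4.01. Rrp1 and Nob1, which act in ribosomal RNA processing, had mitotic folds of 10.5 and 10.8, and of 17 and 8.15. Eif4b, named after its values had been seen, had mitotic CTCF folds of 4.23 and 3.15 and no CTCF peak within 1 kb in either asynchronous list.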

How the data were processed

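The tools named in the submitters' processing notes are MACS2 2.1.1.20160309, SAMtools, BWA 0.7.17 and CASAVA 1.4, and the build is mm10. Options, filters and control libraries were not given in the sources used here. Every library has its own deposited narrowPeak list. The fold deposited for a peak is a ratio of its summit to local background. A −log10 p and a −log10 q of that summit were also deposited. The lists hold no counts. Depth was estimated from the fold and −log10 p of up to about 2000 peaks per library under a Poisson model. It is the lowest background found, divided by the length of the shortest peak of the list.

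Gene positions came from RefSeq on GRCm38.p6, and strand from its promoter table (69 of the 90 genes). Overlapping peaks of both asynchronous libraries were merged, and a region sharing at least 1 bp with a mitotic peak was called there. Intervals are 95% Wilson intervals and cover counting error only. Numbers of genes per library were tested by exact two-sided permutation of the libraries, and gene groups were described by counts alone. The code (Python, numpy, pandas, scipy) was tested on simulated intervals and against bedtools.

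Members, lists and rules were chosen with earlier results of these data known. Named were genes with a peak within 1 kb in both mitotic libraries (at most 15 per factor), the 8 strongest and the 5 with the most regions per factor, and a fixed set of 13 genes. Rpl28, Rps12, Rps14, Rplp1, Rplp2 and others marked in the text were chosen after their values were seen. Values of some genes that these rules name are not reported here. The motif CCNNNAGNNGGC was added after the promoter sequences were seen. Alternatives covered q, fold, summits, distances, overlap, regions of either library, single libraries left out and same-numbered libraries compared.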

Additional observations from a re-analysis of the deposited data

How the results depend on the processing

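Every difference in gene number kept its direction under every alternative, and none could pass a threshold, since the smallest exact permutation p is 0.333 (0.5 with same-numbered libraries compared as a block). With a fold of at least 5 the mitotic minus asynchronous difference at 1 kb for SOX2 was −18 genes (18 against 0) in place of −69, and for CTCF at 50 kb −29.5 in place of −11. Using only the start boundary of 69 genes it was −43.5 for SOX2 and −17.5 for CTCF, in place of −28. For CTCF a distance of 10 kb gave −31.5 and 100 kb gave −3.5. With regions of either asynchronous library the share of CTCF regions called was 30.2% at 1 kb and 22.0% at 50 kb, in place of 41.8% and 29.0%.

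Leaving out 1 library gave differences at 1 kb of −76.5 to −61.5 (SOX2) and −34 to −22 (CTCF), and at 50 kb of −84 to −74 and −14 to −8. Shares ran from 0 to 3.75% (SOX2, 1 kb), 1.17 to 3.88% (SOX2, 50 kb), 34.2 to 49.3% (CTCF, 1 kb) and 24.6 to 33.2% (CTCF, 50 kb). Without mitotic SOX2 replicate 1 no SOX2 peak was left at a ribosomal protein gene boundary in mitosis. In the replicate block the differences were the same as in the main comparison, and the shares were 0.588%, 1.41%, 34.9% and 24.7% in that order. The labels do not say what a replicate number marks. Differences between replicates correlated across genes between conditions by −0.0286 for SOX2 and −0.00418 for CTCF.

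Separate peak lists do not show how much signal was left under the calling threshold.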
